A study of Mus musculus with 6 samples.

Results

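The 10 genes described here encode parts of the T cell receptor and proteins that mark subsets of T cells. They are Cd3e, Cd3d, Cd3g, Trac, Trdc, Tcrg-C1, Cd4, Cd8a, Foxp3 and Ctla4, chosen by symbol among the 48709 genes of a count table from mouse gingiva, the mucosa around the teeth. Tcrg-C1 is listed as Trgc1 in the authors' deposited table of names. The tissue came from C57BL/6 mice of 12 weeks that lacked plasminogen (Plg KO) or were their wild-type littermates (Plg WT), with 3 bulk RNA sequencing libraries of each. Plasminogen is the precursor of plasmin, the protease that dissolves fibrin, and the study asks how its loss changes the transcripts of the oral mucosa. The labels do not describe the Plg allele, name no treatment, and leave unsaid if each library was a different animal. The p-values below therefore rest on the spread among libraries, part of which may be technical.

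A T cell recognises its target through a receptor of 2 variable chains, which are either alpha and beta or gamma and delta, each made of a variable segment joined to a constant region. The chains signal through the CD3 subunits and the zeta chain, which both kinds of T cell share. Most alpha-beta T cells also carry CD4 or CD8, while gamma-delta T cells are common at epithelial barriers, where in mice some of them release interleukin-17. Foxp3 is the transcription factor of regulatory T cells, and Ctla4 is an inhibitory receptor that these cells and activated T cells carry.

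The reads were 37 bases long, so a read can be placed in 1 of several similar constant regions only where these differ. The first 90 coding bases of 3 gamma constant regions are shown for this reason, read from GENCODE release M21 transcripts on GRCm38. Capitals mark the bases at which Tcrg-C2 or Tcrg-C4 differs from Tcrg-C1 and, in Tcrg-C1, the base at which Tcrg-C2 differs.
Tcrg-C1: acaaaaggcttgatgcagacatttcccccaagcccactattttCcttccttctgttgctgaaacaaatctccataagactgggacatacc
Tcrg-C2: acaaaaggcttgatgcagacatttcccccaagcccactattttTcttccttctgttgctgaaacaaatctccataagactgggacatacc
Tcrg-C4: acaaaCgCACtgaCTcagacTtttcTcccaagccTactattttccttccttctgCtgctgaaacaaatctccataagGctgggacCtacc
Tcrg-C2 differs from Tcrg-C1 at 1 of these bases and Tcrg-C4 at 12. Over the whole coding sequence, 25.9% of the 37-base windows of Tcrg-C1 also occur in Tcrg-C2 and 41.5% in Tcrg-C3, while 0 of its 479 windows occur in Tcrg-C4. Counts of Tcrg-C1, Tcrg-C2 and Tcrg-C3 are therefore uncertain as single genes. The beta constant regions pose the same problem, since the first 90 coding bases of Trbc1 and Trbc2 are identical.
Trbc1: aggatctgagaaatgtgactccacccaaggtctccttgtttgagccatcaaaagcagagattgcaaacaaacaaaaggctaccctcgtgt
Trbc2: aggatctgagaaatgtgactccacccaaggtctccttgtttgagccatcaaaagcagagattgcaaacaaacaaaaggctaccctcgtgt
Of the coding windows of Trbc1, 64.1% also occur in Trbc2.

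Total gene counts ran from 26183389 to 36429150 in Plg KO libraries and from 28184139 to 36006829 in Plg WT libraries, and a count of 0 allows up to 3 counts, or 0.0824 to 0.115 CPM (counts per library scaled to equal depth). Plg itself had 2 counts in Plg KO 1 and 0 in Plg KO 2 and 3, against 2 counts in Plg WT 3 and 0 in Plg WT 1 and 2, so its transcript could not check the genotype in this tissue. The gingival epithelium was present in every library, with summed keratin markers at 27500 to 34100 CPM in Plg KO and 31000 to 35500 CPM in Plg WT. Markers of neighbouring tissue varied between libraries. Skeletal muscle markers summed to 1880, 7390 and 8800 CPM in Plg KO 1, 2 and 3 and to 8340, 4360 and 5150 CPM in Plg WT 1, 2 and 3, and salivary gland markers to 935 to 1190 CPM in Plg KO and 192 to 1130 CPM in Plg WT. Among the Plg WT libraries, Plg WT 3 had the lowest value for 8 of the 10 genes and the highest for Trdc and Tcrg-C1. Among the Plg KO libraries, Plg KO 1 had the lowest for 6.

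All 10 genes were detected, at low levels. Normalised levels are given as CPM scaled by the trimmed mean of M values (TMM), always in the order of library 1, 2 and 3. A filter on low counts kept 17757 genes and 7 of the 10, leaving out Cd8a, Foxp3 and Ctla4, for which values come from the same fit without a filter. None of the 10 differed between Plg KO and Plg WT by the quasi-likelihood test of edgeR at a Benjamini-Hochberg adjusted p under 0.05, against 0.237% of all tested genes with the filter and 0.51% without it. Called genes over the whole table numbered 34 higher and 8 lower in Plg KO. Over the filtered genes, DESeq2 called 0 of the 7 and 2.26% of all (274 higher and 128 lower), and limma-voom 0 of the 7 and 0.231%. At an unadjusted p under 0.05, edgeR had 0 of the 7, where 9.25% of all filtered genes reached it, and 0 of the other 3 in the fit without a filter. The log2 difference of Plg KO over Plg WT was negative for 8 genes and positive for 2, with a median of -0.26, where the median over all tested genes was -0.00. Tcrg-C1 was the 1 gene whose 2 groups of libraries did not overlap, with Plg KO higher, as for 7.51% of all tested genes. No gene of the 10 had Plg KO lower without overlap, against 7.18% of all. In bulk tissue, fewer T cells and less RNA per T cell cannot be told apart.

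**Figure D1:**
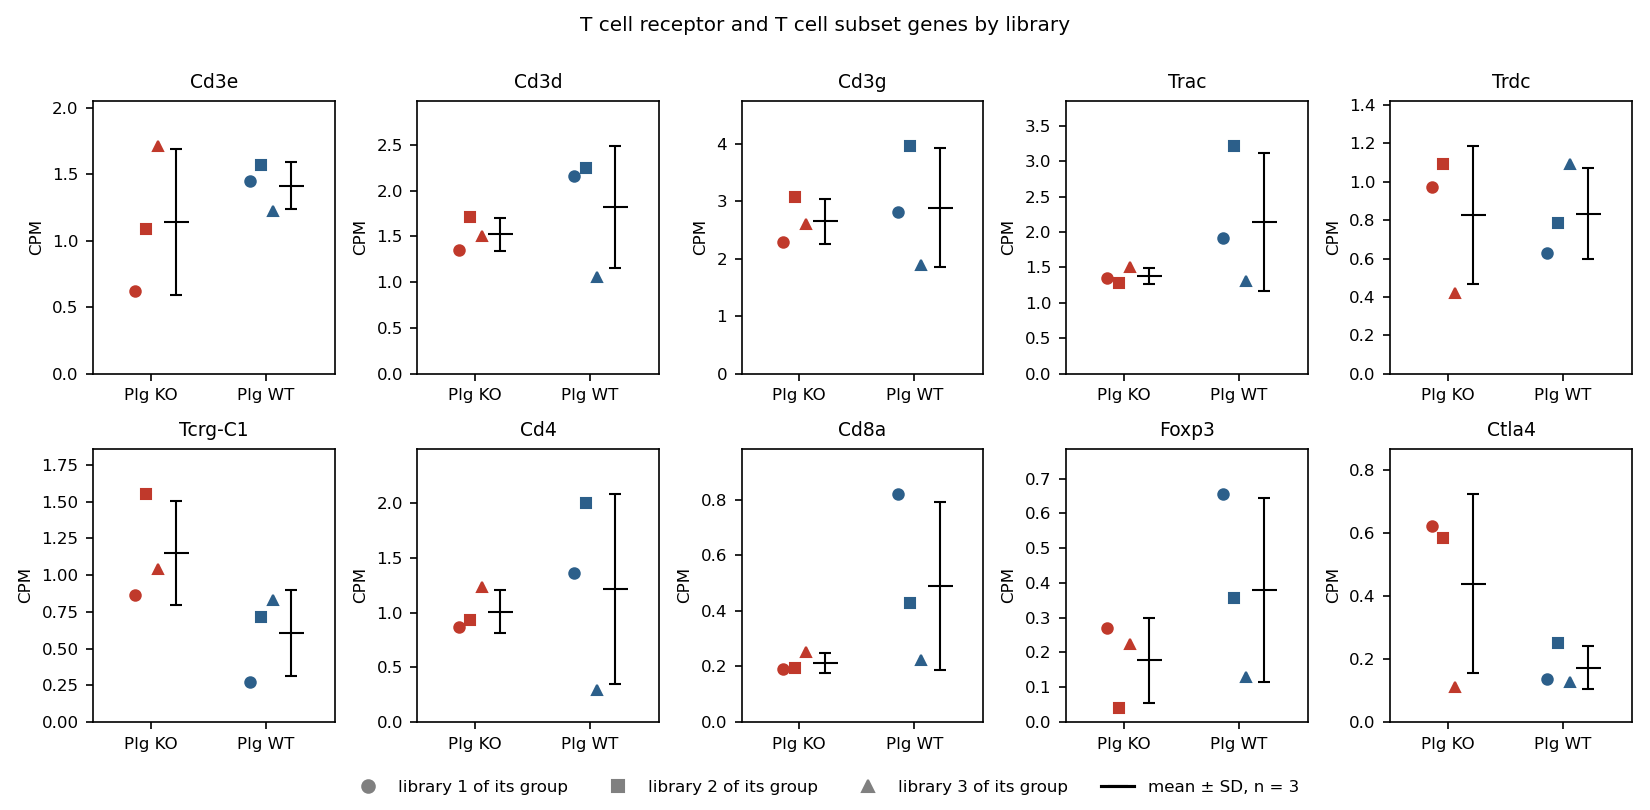
CPM of each of the 10 genes on a linear axis, with Plg KO on the left and Plg WT on the right, 1 point per library and bars for mean ± SD (n = 3). The groups overlap for every gene except Tcrg-C1, whose Plg KO libraries sit at 0.864 to 1.55 CPM, above the Plg WT libraries at 0.273 to 0.833 CPM.

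Levels of different genes were compared per kilobase of annotated exon. Trac was the most abundant at 1.89 ± 0.799 CPM per kilobase over the 6 libraries (SD, n = 6). Tcrg-C1 at 0.951 ± 0.453, Cd3d at 0.921 ± 0.256 and Cd3g at 0.848 ± 0.218 CPM per kilobase followed, and these 3 did not differ beyond their spread. Cd3e at 0.313 ± 0.0963, Cd4 at 0.276 ± 0.142 and Trdc at 0.215 ± 0.0699 CPM per kilobase likewise lay within each other's range. Ctla4 at 0.131 ± 0.101, Cd8a at 0.0965 ± 0.0675 and Foxp3 at 0.0609 ± 0.047 CPM per kilobase were lowest and overlapped one another. The order depends on annotated exon lengths, which run from 924 bases for Tcrg-C1 and 935 for Trac to 4577 for Foxp3.

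The CD3 genes, shared by all T cells, had overlapping levels in the genotypes. They lie next to each other on chromosome 9 of GRCm38. Cd3e (ENSMUSG00000032093, chromosome 9, 44998740 to 45009627, minus strand) encodes the epsilon subunit. It had 0.621, 1.09 and 1.71 CPM in Plg KO and 1.45, 1.57 and 1.22 CPM in Plg WT. The Plg KO libraries lay on both sides of the Plg WT range. The log2 difference was -0.31 ± 0.39 (SE), with a 95% interval of -1.22 to 0.60 and an adjusted p of 0.874 by edgeR, and leaving out 1 library moved it between -0.74 (without Plg KO 3) and -0.01 (without Plg KO 1). Cd3d (ENSMUSG00000032094, chromosome 9, 44981786 to 44987339, plus strand) encodes the delta subunit and had 1.35, 1.71 and 1.51 CPM in Plg KO against 2.16, 2.25 and 1.06 CPM in Plg WT. Its Plg WT libraries 1 and 2 were above every Plg KO library and Plg WT 3 below them. The log2 difference was -0.26 ± 0.33 (interval -1.04 to 0.52, edgeR adjusted p = 0.876), and it ran from -0.53 without Plg WT 3 to -0.09 without Plg WT 2. Cd3g (ENSMUSG00000002033, chromosome 9, 44969572 to 44980431, minus strand), the gamma subunit, had 2.29, 3.07 and 2.60 CPM in Plg KO and 2.81, 3.96 and 1.89 CPM in Plg WT. Here too the Plg KO libraries fell inside the Plg WT range, and the log2 difference was -0.12 ± 0.30 (interval -0.82 to 0.58, edgeR adjusted p = 0.945). Its interval excludes a 2-fold difference in either direction, while those of Cd3e and Cd3d reach past 2-fold on the lower side. Cd247, the zeta chain, averaged 1.29 ± 0.246 CPM in Plg KO and 1.10 ± 0.455 CPM in Plg WT (SD, n = 3 each; log2 difference 0.23 ± 0.39, edgeR adjusted p = 0.916). Of its 37-base windows, 57.1% are shared with other transcripts, mainly those of Pou2f1 on the opposite strand, and the library kit does not mark strand.

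The alpha chain constant region was lower on average in Plg KO, without reaching the threshold. Trac (ENSMUSG00000076928, chromosome 14, 54220521 to 54224206, plus strand) had 1.35, 1.28 and 1.51 CPM in Plg KO and 1.91, 3.21 and 1.31 CPM in Plg WT. Plg WT 1 and 2 were above all Plg KO libraries, and Plg WT 3 was among them. The means were 1.38 ± 0.119 CPM in Plg KO and 2.15 ± 0.971 CPM in Plg WT (SD, n = 3 each), a log2 difference of -0.63 ± 0.35 (interval -1.45 to 0.20, edgeR adjusted p = 0.660). Without Plg WT 2, the highest library, it was -0.22. The beta constant regions did not follow Trac. Trbc1 had 1.54, 1.24 and 1.96 CPM in Plg KO and 2.07, 1.96 and 0.673 CPM in Plg WT (log2 difference 0.01 ± 0.43, edgeR adjusted p = 0.998). Trbc2 had 19.4, 17.1 and 16.9 CPM in Plg KO and 16.5, 14.4 and 16.2 CPM in Plg WT, with Plg KO higher and no overlap (log2 difference 0.18 ± 0.12, edgeR adjusted p = 0.707). Per kilobase, Trbc2 stood at 24.2 CPM and Trac at 1.89 CPM over all libraries, although an alpha-beta T cell uses both chains. What else may contribute to the Trbc2 count was not tested.

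Of the gamma-delta constant regions, the gamma gene had its highest values in Plg KO, without a call, and the delta gene had overlapping values. Tcrg-C1 (ENSMUSG00000076749, chromosome 13, 19214103 to 19217024, plus strand) had 0.864, 1.55 and 1.04 CPM in Plg KO, from 32, 40 and 37 reads, and 0.273, 0.714 and 0.833 CPM in Plg WT, from 10, 20 and 26 reads. Every Plg KO library was above every Plg WT library, and the gap between the nearest, Plg KO 1 and Plg WT 3, was small. The means were 1.15 ± 0.359 CPM in Plg KO and 0.607 ± 0.295 CPM in Plg WT (SD, n = 3 each), and the log2 difference of 0.92 ± 0.46 was not called (interval -0.16 to 2.01, unadjusted p = 0.0853, edgeR adjusted p = 0.623). Without Plg WT 1, the lowest library, it was 0.56. Tcrg-C2 and Tcrg-C3 share part of the 37-base windows of Tcrg-C1. With these added, the sums were 1.03, 1.59 and 1.34 CPM in Plg KO and 0.437, 1.39 and 0.897 CPM in Plg WT. The groups then overlapped, since Plg WT 2 lay above 2 of the Plg KO libraries. Tcrg-C4, which shares no window with them, had 0.243, 0.233 and 0.420 CPM in Plg KO and 0.164, 0.214 and 0.0320 CPM in Plg WT (log2 difference without filter 1.12 ± 0.72, edgeR adjusted p = 0.764). Trdc (ENSMUSG00000104876, chromosome 14, 54142851 to 54148868, plus strand), the delta constant region, had 0.972, 1.09 and 0.420 CPM in Plg KO and 0.628, 0.785 and 1.09 CPM in Plg WT. The groups overlapped, and the log2 difference was -0.02 ± 0.43 (interval -1.03 to 0.99, edgeR adjusted p = 0.996).

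**Figure D2:**
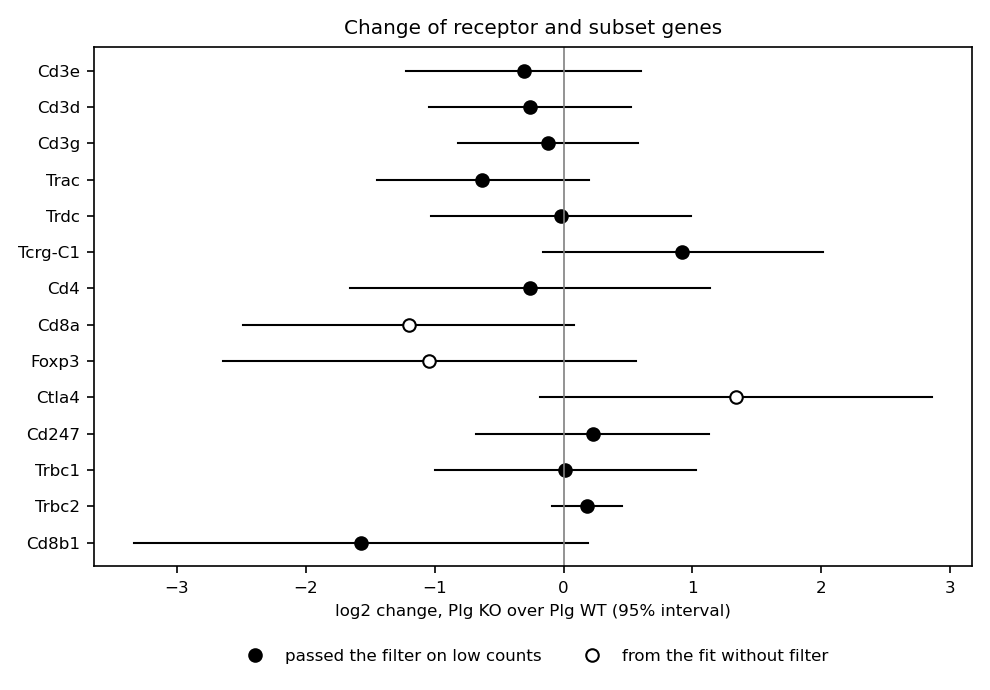
Log2 difference of Plg KO over Plg WT (horizontal axis) for the 10 genes and for Cd247, Trbc1, Trbc2 and Cd8b1, with 95% intervals from the edgeR fit. Every interval crosses 0, from Trbc2 with the narrowest to Cd8b1 with the widest, and open points are genes that did not pass the filter on low counts.

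Alpha-beta was set against gamma-delta within each library as Trac over the sum of Trdc and Tcrg-C1. The ratio was 0.735, 0.485 and 1.04 in Plg KO and 2.12, 2.14 and 0.683 in Plg WT. Plg WT 1 and 2 had ratios above all Plg KO libraries, while Plg WT 3 lay within the Plg KO range. The means were 0.753 ± 0.277 in Plg KO and 1.65 ± 0.836 in Plg WT (SD, n = 3 each). The log2 difference of the group means of log ratios was -1.02. Leaving out 1 library moved it between -1.57 (without Plg WT 3) and -0.74 (without Plg KO 2). No p is given for it, since the genes were chosen with earlier results of these data known, and an exact permutation test of 3 libraries against 3 cannot go under 0.10. Against Tcrg-C1 alone the ratio of Trac was 1.56, 0.825 and 1.46 in Plg KO and 7.0, 4.50 and 1.58 in Plg WT, without overlap but with Plg KO 1 and Plg WT 3 close together. Against Trdc alone it was 1.39, 1.18 and 3.60 in Plg KO and 3.04, 4.09 and 1.21 in Plg WT, with overlap. With Trbc1, Trbc2, Tcrg-C2 and Tcrg-C4 included, the ratio was 10.1, 6.75 and 9.35 in Plg KO and 16.6, 8.45 and 9.03 in Plg WT (log2 difference -0.33), a sum dominated by Trbc2. Trac relative to Cd3g was 0.588, 0.418 and 0.581 in Plg KO and 0.680, 0.811 and 0.695 in Plg WT, lower in each Plg KO library. The ratios of Cd3e, Cd3d, Tcrg-C1 and Trdc to Cd3g overlapped between the genotypes, as did that of Trac to Trbc1. Apart from the first ratio and the one with all constant regions, these were chosen after the values were seen.

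**Figure D3:**
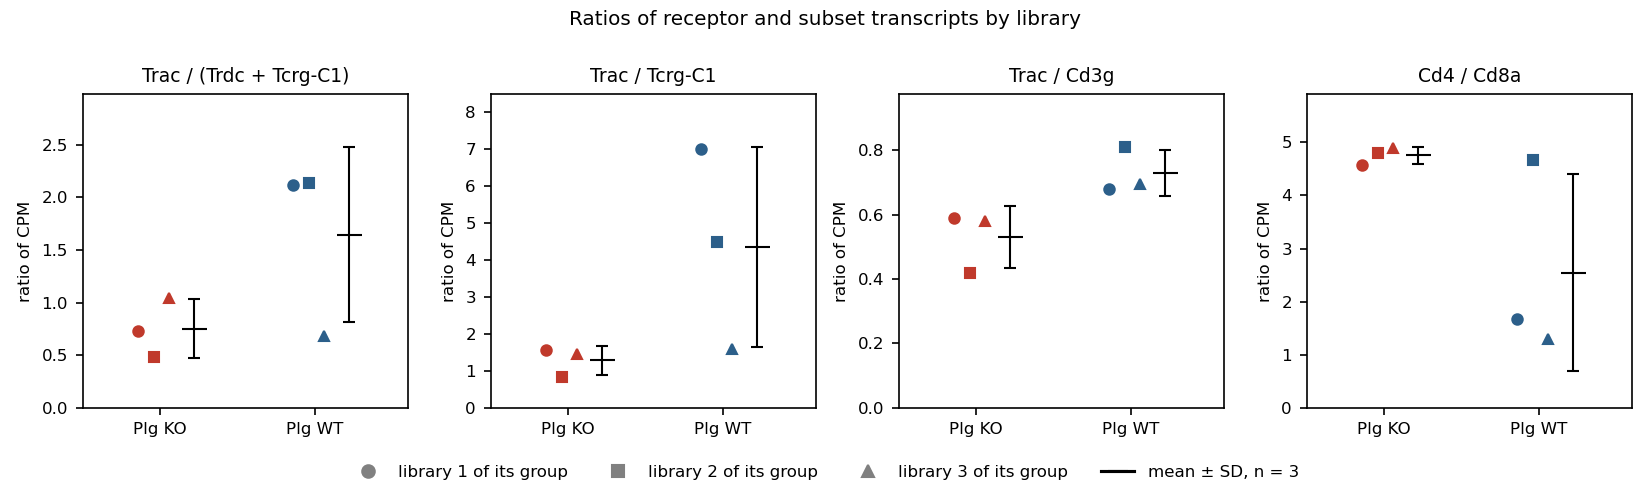
Ratios of CPM within each library for Trac over Trdc plus Tcrg-C1, Trac over Tcrg-C1, Trac over Cd3g and Cd4 over Cd8a, with Plg KO left of Plg WT and bars for mean ± SD (n = 3). Plg WT 3 lies close to the Plg KO libraries in the first 2 panels, at 0.683 and 1.58.

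Variable segments, which rearranged receptors carry, gave a second view of the chains. They were summed per chain after the constant regions had been seen. The 7 gamma segments held 19, 24 and 16 reads in Plg KO and 9, 17 and 22 reads in Plg WT, or 0.631 ± 0.263 CPM in Plg KO and 0.519 ± 0.242 CPM in Plg WT (SD, n = 3 each). The 5 delta segments held 18, 13 and 14 reads in Plg KO and 14, 11 and 14 in Plg WT, or 0.461 ± 0.0604 CPM in Plg KO and 0.408 ± 0.0357 CPM in Plg WT. Neither sum separated the genotypes. The 22 beta segments held 16, 14 and 17 reads in Plg KO and 41, 25 and 29 in Plg WT. At 0.432, 0.544 and 0.476 CPM in Plg KO and 1.12, 0.893 and 0.929 CPM in Plg WT, this sum was lower in every Plg KO library than in any Plg WT library, as the counts of Trbc1 and Trbc2 were not. Among single genes, 7.18% of all filtered ones had Plg KO lower without overlap. The 108 alpha segments, which include those shared with delta, held 11, 2 and 8 reads in Plg KO and 13, 8 and 5 in Plg WT, with overlap. Against their constant regions the segments were few for beta, with 142 reads over all libraries beside 3280 of Trbc2, and more even for delta, with 84 reads beside 158 of Trdc.

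A single gamma segment and a single delta segment dominated in both genotypes. Tcrg-V6 held 39 of 59 gamma segment reads in Plg KO, 66.1% (exact 95% interval 52.6 to 77.9%), and 35 of 48 in Plg WT, 72.9% (58.2 to 84.7%). Trdv4 held 45 of 45 delta segment reads in Plg KO (interval 92.1 to 100%) and 38 of 39 in Plg WT, 97.4% (86.5 to 99.9%). In mice these segments are known as the pair carried by invariant gamma-delta T cells that settle in mucosal tissues around birth and produce interleukin-17. The intervals cover counting error only and overlap between genotypes. No 37-base window of either segment occurs in another annotated transcript. Of the other gamma segments, Trgv2 had 6 reads in Plg KO and 7 in Plg WT, and Tcrg-V1 had 5 in Plg KO and 3 in Plg WT. Tcrg-V5, Tcrg-V4 and Tcrg-V3 had 4, 3 and 2 reads in Plg KO and 0 in Plg WT, while Tcrg-V7 had 0 in Plg KO and 3 in Plg WT. The beta reads were spread, led by Trbv13-2 with 8 in Plg KO and 16 in Plg WT and Trbv12-2 with 8 in Plg KO and 13 in Plg WT.

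**Figure D4:**
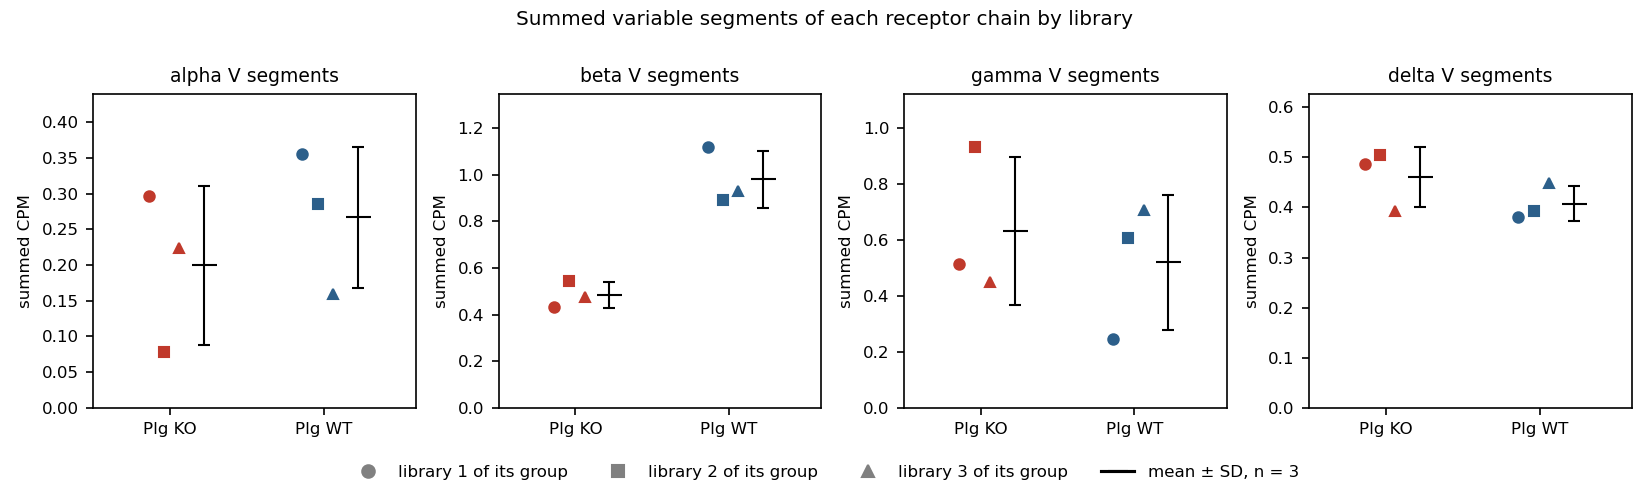
Summed CPM of the variable segments of each receptor chain, with Plg KO left of Plg WT, 1 point per library and bars for mean ± SD (n = 3). The beta sums of the 3 Plg KO libraries (0.432 to 0.544 CPM) lie below those of the 3 Plg WT libraries (0.893 to 1.12 CPM), and the other chains overlap.

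The coreceptors that divide alpha-beta T cells had few reads. Cd4 (ENSMUSG00000023274, chromosome 6, 124864692 to 124888221, minus strand), the coreceptor of helper and regulatory T cells, is also carried by some myeloid cells. It had 0.864, 0.932 and 1.23 CPM in Plg KO and 1.36, 2.0 and 0.288 CPM in Plg WT. Plg WT 2 was highest and Plg WT 3 lowest of all, with 9 reads, so the log2 difference of -0.26 ± 0.60 has a wide interval of -1.66 to 1.14 (edgeR adjusted p = 0.939). Cd8a (ENSMUSG00000053977, chromosome 6, 71373427 to 71379173, plus strand), a chain of the coreceptor of cytotoxic T cells, had 7, 5 and 9 reads in Plg KO and 30, 12 and 7 in Plg WT. In CPM these were 0.189, 0.194 and 0.252 in Plg KO and 0.819, 0.428 and 0.224 in Plg WT. Plg WT 1 and 2 stood above the Plg KO libraries and Plg WT 3 among them, and the log2 difference without filter was -1.20 ± 0.59 (interval -2.49 to 0.08, unadjusted p = 0.0635, edgeR adjusted p = 0.757). Cd8b1, the partner chain, had 0.0270, 0.466 and 0.168 CPM in Plg KO and 0.628, 0.821 and 0.416 CPM in Plg WT (log2 difference -1.57 ± 0.75, interval -3.33 to 0.19, edgeR adjusted p = 0.595). Both chains thus had means in Plg KO under those in Plg WT, without a call. The ratio of Cd4 to Cd8a was 4.57, 4.80 and 4.89 in Plg KO and 1.67, 4.67 and 1.29 in Plg WT. It overlapped between the genotypes through Plg WT 2.

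Regulatory T cell genes were near the limit of detection. Foxp3 (ENSMUSG00000039521, chromosome X, 7573644 to 7595245, plus strand) had 10, 1 and 8 reads in Plg KO and 24, 10 and 4 in Plg WT, or 0.270, 0.0388 and 0.224 CPM in Plg KO and 0.655, 0.357 and 0.128 CPM in Plg WT. The groups overlapped, and the log2 difference without filter was -1.04 ± 0.74 (interval -2.64 to 0.56, edgeR adjusted p = 0.764). Without Plg KO 2 it was -0.63. Of its windows, 25.3% occur in overlapping genes such as Flicr and Ccdc22, so some of these few reads cannot be assigned. Ctla4 (ENSMUSG00000026011, chromosome 1, 60887000 to 60915832, plus strand) differed the other way, with 23, 15 and 4 reads in Plg KO and 5, 7 and 4 in Plg WT. At 0.621, 0.583 and 0.112 CPM in Plg KO and 0.136, 0.25 and 0.128 CPM in Plg WT, Plg KO 1 and 2 were highest and Plg KO 3 was lowest. The log2 difference without filter was 1.34 ± 0.70 (interval -0.18 to 2.86, unadjusted p = 0.0782, edgeR adjusted p = 0.764). Foxp3 relative to Cd4 was 0.312, 0.0417 and 0.182 in Plg KO and 0.480, 0.179 and 0.444 in Plg WT, with overlap.

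Other genes of T cell biology were counted in 10 lists of 94 genes, of which 91 had reads and 66 passed the filter. None of the 66 was called by edgeR, DESeq2 or limma-voom. Among the 66, edgeR had an unadjusted p under 0.05 for 2 higher (Tnfrsf4 among them) and 5 lower (Cd2, Cd28, Cd5, Ccr6 and Cxcr5) in Plg KO, together 10.6%, near the 9.25% of all filtered genes. Of the other 25 with reads, only Il17f had one in the fit without a filter (edgeR adjusted p = 0.532). The genes named here, and the genes picked out below for groups that do not overlap, were named after their values were seen, and all adjusted p-values below come from edgeR with Benjamini-Hochberg adjustment. Of the 91 genes, 6 (6.59%) had Plg KO higher and 6 (6.59%) had Plg KO lower without overlap, shares near the 7.51% and 7.18% of all filtered genes.

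In the list of receptor signalling and costimulation, 15 of 20 genes had a negative log2 difference, with a median of -0.25. Cd2, an adhesion receptor of T cells and other leukocytes, had 0.513, 0.855 and 0.644 CPM in Plg KO and 1.91, 2.07 and 0.769 CPM in Plg WT (log2 difference -1.25 ± 0.44, adjusted p = 0.412). Cd28, the costimulatory receptor, averaged 0.615 ± 0.318 CPM in Plg KO and 1.29 ± 0.382 CPM in Plg WT (log2 difference -1.09 ± 0.46, adjusted p = 0.539). In both, 2 of the Plg WT libraries lay above all Plg KO libraries and Plg WT 3 among them. Cd5, which dampens receptor signals, was the most abundant of the list, at 18.0 ± 0.609 CPM in Plg KO and 21.2 ± 1.05 CPM in Plg WT without overlap (log2 difference -0.24 ± 0.10, adjusted p = 0.522). Its level far exceeded those of the CD3 genes. Prkcq, a kinase downstream of the receptor, averaged 14.1 ± 7.76 CPM in Plg KO and 14.7 ± 5.06 CPM in Plg WT (adjusted p = 0.988). It is also made by skeletal muscle, whose markers were lowest in Plg KO 1, where Prkcq was lowest too at 5.29 CPM, and their part in the Prkcq values was not tested. Zap70, the kinase that binds the CD3 and zeta chains, had 1.38, 1.05 and 1.12 CPM in Plg KO and 0.573, 0.821 and 0.865 CPM in Plg WT (log2 difference 0.66 ± 0.30, adjusted p = 0.575), higher in each Plg KO library.

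The T cell transcription factors had 2 positive and 6 negative log2 differences, with a median of -0.23. Ets1 averaged 368 ± 16.0 CPM in Plg KO and 346 ± 15.7 CPM in Plg WT (adjusted p = 0.820), and Bcl11b 44.5 ± 2.60 CPM in Plg KO and 55.4 ± 17.2 CPM in Plg WT (adjusted p = 0.742). Both are also expressed in epithelium, and their levels far exceeded those of the CD3 genes. Tcf7, a factor of naive and memory T cells, had 1.84, 2.21 and 1.06 CPM in Plg KO and 3.41, 2.71 and 2.24 CPM in Plg WT (log2 difference -0.72 ± 0.32, adjusted p = 0.564). The Plg KO libraries were all under the Plg WT libraries, by a small margin between Plg KO 2 and Plg WT 3. The list of naive and recirculating T cells had 4 of 5 negative and a median of -0.44. Its most abundant genes were S1pr1, the receptor that leads T cells out of lymphoid organs, at 14.3 ± 5.67 CPM in Plg KO and 19.3 ± 2.06 CPM in Plg WT (adjusted p = 0.728), and Ccr7, at 3.42 ± 1.5 CPM in Plg KO and 3.90 ± 1.18 CPM in Plg WT (adjusted p = 0.931). S1pr1 too lay above the CD3 genes in CPM, and which cells made it was not tested.

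The regulatory T cell list without Foxp3 and Ctla4 had 9 of 10 positive differences and a median of 0.39. Tnfrsf4, a costimulatory receptor, had 1.84, 2.02 and 1.20 CPM in Plg KO and 0.546, 0.928 and 1.22 CPM in Plg WT (log2 difference 0.91 ± 0.37, adjusted p = 0.511). Tnfrsf18, a receptor of the same family, averaged 4.59 ± 0.238 CPM in Plg KO and 3.49 ± 0.576 CPM in Plg WT without overlap (log2 difference 0.39 ± 0.19, adjusted p = 0.591). The most abundant, Ikzf2 and Ikzf4, were at 63.4 ± 7.82 and 21.5 ± 2.24 CPM in Plg KO and at 57.9 ± 9.60 and 18.8 ± 6.10 CPM in Plg WT (adjusted p = 0.857 and 0.874). Both far exceeded Foxp3 and the CD3 genes, and the cells that made them were not tested. Foxp3 itself had a negative log2 difference, so the list and its defining gene did not share a direction.

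The gamma-delta and type 17 list had 5 positive and 5 negative differences, with a median of 0.04. Il17a and Il22, which encode cytokines of type 17 cells, had 0 reads in all 6 libraries. Il17f had 40 reads in Plg KO and 6 in Plg WT, at 0.243, 1.17 and 0.0280 CPM in Plg KO and 0.0819, 0.0357 and 0.0641 CPM in Plg WT. Most of these reads came from Plg KO 2, and Plg KO 3 was under every Plg WT library (log2 difference without filter 2.82 ± 1.06, adjusted p = 0.532). Ccr6, a receptor of type 17 T cells and B cells, had 0.0270, 0.544 and 0.0560 CPM in Plg KO and 1.45, 0.750 and 0.705 CPM in Plg WT (log2 difference -2.35 ± 0.89, adjusted p = 0.463). Maf, the most abundant of the list, averaged 685 ± 258 CPM in Plg KO and 827 ± 178 CPM in Plg WT (adjusted p = 0.832). Its level far exceeded those of Trdc and the CD3 genes, and which cells made it was not tested.

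The remaining lists held few abundant genes. Among cytotoxic T and NK cell genes, Nkg7 averaged 3.96 ± 0.967 CPM in Plg KO and 4.72 ± 1.26 CPM in Plg WT (adjusted p = 0.845), and Ccl5 1.35 ± 0.0514 CPM in Plg KO and 1.79 ± 0.505 CPM in Plg WT (adjusted p = 0.728). The median of this list was 0.58, but only 4 of its 12 genes passed the filter, and those named here had negative differences. Among helper and follicular genes (median -0.08), Bcl6 averaged 15.4 ± 5.60 CPM in Plg KO and 15.4 ± 1.96 CPM in Plg WT (adjusted p = 0.999). Bcl6 was also well above the CD3 genes, and its source was not tested. Cxcr5, a receptor of follicular T cells and B cells, had 2.38, 2.10 and 1.68 CPM in Plg KO and 4.50, 3.71 and 2.56 CPM in Plg WT (log2 difference -0.81 ± 0.27, adjusted p = 0.384). In the tissue-resident list, 5 of 5 differences were positive (median 0.59), with Cxcr6 at 3.46 ± 1.16 CPM in Plg KO and 2.30 ± 1.46 CPM in Plg WT (adjusted p = 0.764) and Itga1 at 2.80 ± 0.812 CPM in Plg KO and 2.77 ± 0.839 CPM in Plg WT (adjusted p = 0.998). The inhibitory receptors had a median of -0.05, with Havcr2 at 2.93 ± 1.55 CPM in Plg KO and 2.16 ± 1.03 CPM in Plg WT (adjusted p = 0.841) and Pdcd1 at 0.913 ± 0.116 CPM in Plg KO and 0.567 ± 0.475 CPM in Plg WT (adjusted p = 0.813).

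**Figure D5:**
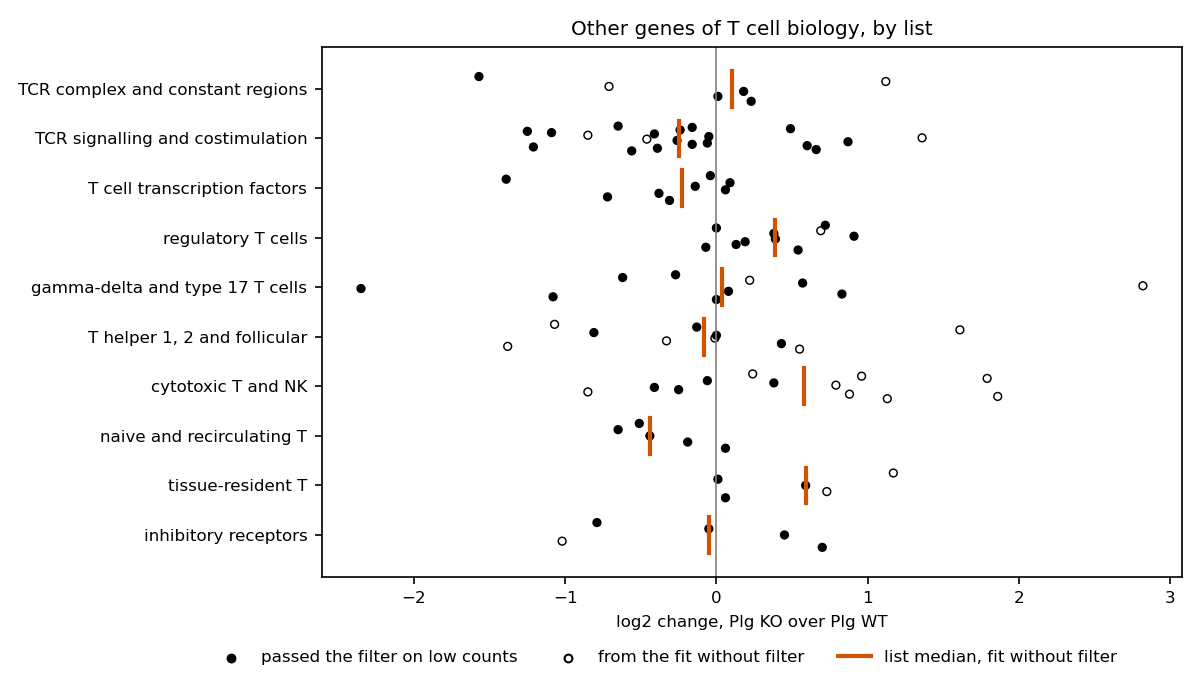
Log2 difference of Plg KO over Plg WT (horizontal axis) for each gene with reads in the 10 lists of T cell biology, with 1 row per list, filled points for genes past the filter on low counts, open points for the others and an orange bar at the list median. No point is a called gene, and the medians run from -0.44 for naive and recirculating T cells to 0.59 for tissue-resident T cells.

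B cell and neutrophil markers separated the genotypes in these libraries. The summed B cell markers were 2.78, 2.14 and 4.17 CPM in Plg KO and 72.9, 27.4 and 16.2 CPM in Plg WT, with a median log2 difference of -3.57 over the 6 markers, and the order within Plg WT was the order of Cd8a. By edgeR 0 of the 6 B cell markers was called and 5 had an unadjusted p under 0.05, while DESeq2 called those 5. The neutrophil markers summed to 217, 489 and 137 CPM in Plg KO and 28.7, 51.6 and 67.9 CPM in Plg WT, and Clec4e, a receptor of neutrophils and macrophages, was called higher at 2.69 ± 0.605 CPM in Plg KO and 0.165 ± 0.0586 CPM in Plg WT (log2 difference 3.98 ± 0.36, edgeR adjusted p = 0.0184). S100a8 and S100a9 made up most of each sum. Of the 6 neutrophil markers, edgeR called 1 and DESeq2 called 5, against 0.237% and 2.26% of all tested genes. The part of lymphoid tissue or of a changed leukocyte mix in the T cell values was not tested. Ptprc, carried by all leukocytes, had 5.10, 5.63 and 6.81 CPM in Plg KO and 10.1, 7.82 and 5.13 CPM in Plg WT (edgeR adjusted p = 0.719). Divided by Ptprc, Cd8a was lower in each Plg KO library than in any Plg WT library, at 0.0370, 0.0345 and 0.0370 in Plg KO and 0.0811, 0.0548 and 0.0437 in Plg WT. The margin was small, since Plg KO 1 and Plg WT 3 held 7 Cd8a reads each. Of the 10 genes divided by Ptprc, Cd8a alone had no overlap, and it was picked out after the values were seen. No share over all genes was computed for such ratios. Tcrg-C1 over Ptprc was 0.169, 0.276 and 0.152 in Plg KO and 0.0270, 0.0913 and 0.163 in Plg WT, so that its groups overlapped on this scale. The log2 difference of these ratios, between group means of log2 ratios, was positive for Cd3d (0.16), Cd3g (0.28), Cd4 (0.46) and Trdc (0.26). In the edgeR fit all of these were negative, but that is an unlike measure. For Cd4, limma-voom gave 0.11 without division by Ptprc, so its sign does not show an effect of the division. For Trac the log2 difference of the ratios was -0.19 and for Cd3e -0.07, nearer to 0 than in the edgeR fit. For Foxp3 it was -0.87, for Tcrg-C1 1.38 and for Ctla4 1.42.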

How the data were processed

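Libraries from total RNA of gingiva, 3 per genotype, were made with Nextera XT, which does not mark strand, and read as 37-base pairs, per the labels' protocols. The submitters' processing notes name STAR 2.5.2a, DESeq2, edgeR, limma and the builds GRCm38.p3 and mm10. No source used here names the counting tool. The deposited tables hold raw counts per gene (48709 genes) and the authors' TMM-scaled CPM (21948 genes). Another 22 entries that name no gene, at most 3.55e-05% of a library, were left out. Multiplying the deposited CPM by 1 constant per library gave whole reads for 100% of values (tolerance 0.01 read), equal to the raw counts for 100%, and testing these, an alternative added after seeing the data, also gave 34 higher and 8 lower calls.

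Counts were tested with edgeR 4.0.16 in R 4.3.3 (quasi-likelihood F test, TMM, filterByExpr, genotype only, Benjamini-Hochberg over all tested genes, called under 0.05). The SE is the log2 difference divided by the square root of F, without sign. The common biological coefficient of variation was 0.225. DESeq2 1.42.0, limma 3.58.1 (voom, and trend on log2 of deposited CPM plus 0.5), upper-quartile and RLE factors, no filter, a filter of at least 1 CPM in 3 libraries, the replicate number as a block, an adjusted p under 0.10 and leaving out each library were alternatives. A simulation of the comparison (Plg KO over Plg WT) held 17466 genes. In it edgeR called 49 of 99 genes set to a 2-fold change, 85 of 99 set to 4-fold and 14 of 17268 set to none. These shares were not split by level. They therefore do not show how often such changes would be called at the low levels of the T cell genes described above.

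The 10 genes and all lists were chosen with earlier results of these data known. Named genes were the 10, Cd247, Trbc1, Trbc2, Cd8b1, the 2 most abundant of each other list, called list members and those said to be chosen later. A gene that this rule selects is not reported here. Any pair of libraries differed beyond sampling noise (chi-square per degree of freedom of 21.4 or more). Gene positions and transcript windows come from GENCODE release M21 on GRCm38. The exact intervals of segment shares and the floors cover counting error only. The intervals of log2 differences come from the edgeR fit and also take in the spread among libraries. Reads carry no molecular identifiers.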

Additional observations from a re-analysis of the deposited data

Results flagged for a closer look

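The count table also lists a beta-lactamase transgene, tg_beta-lac, that no comparison used. It had 2, 0 and 8 counts in Plg KO 1, 2 and 3 and 3, 8 and 0 counts in Plg WT 1, 2 and 3, and its highest count of 8 is above the 3 counts that a 0 allows.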

How the results depend on the processing

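No gene of the 10 was called under an alternative that tested it, and the lowest adjusted p among 125 such values was 0.332 (Ctla4 without Plg KO 3). Cd8a, Foxp3 and Ctla4 were tested in the fit without a filter and where leaving out a library let them pass it, not with the other tools, factors or the block. Of the 125 values, 120 kept their direction and 5 turned it. Relative to Ptprc, taken from group means of log2 ratios, 6 of 10 had the direction of the edgeR fit, an unlike measure. The other 4 were Cd3d at 0.16, Cd3g at 0.28, Cd4 at 0.46 and Trdc at 0.26. Among the 125, the values at an adjusted p under 0.10 repeat a fit already given, and those from recovered reads use the same counts. Neither kind could turn direction, so they say nothing about how stable it is. Cd4 became 0.11 with limma-voom. Leaving out 1 library gave -0.35 to 0.17 for Cd3g (positive without Plg WT 2), -0.73 to 0.27 for Cd4 (positive without Plg WT 2) and -0.25 to 0.30 for Trdc (positive without Plg KO 3 or Plg WT 3). The log2 difference of Trac over Trdc plus Tcrg-C1 stayed negative, at -1.57 to -0.74 with 1 library left out. Over all genes, 34 higher and 8 lower in the edgeR fit became 274 and 128 with DESeq2, 122 and 40 without a filter, 95 and 26 at an adjusted p under 0.10, and 2 and 0 with the replicate block. Leaving out 1 library gave 1 to 184 higher and 1 to 35 lower. The most, 184 higher and 35 lower, came when Plg WT 1 was dropped, and at most 2 in either direction when Plg WT 2, Plg WT 3, Plg KO 2 or Plg KO 3 was. The cause was not tested. Same-numbered libraries did not deviate together over all genes (correlations of -0.322, -0.036 and -0.288), so this check gave no sign that the numbers pair them. It cannot exclude a pairing, since variation in neighbouring tissue could hide one. At 1 to 30 reads per library for Cd8a, Foxp3 and Ctla4 and 9 to 111 for the others, the 95% interval of every gene of the 10 except Cd3g reached past 2-fold on at least 1 side.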

Other observations

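Across the 6 libraries, the log2 CPM of Cd3e (pseudocount 0.5) was compared with that of 14696 genes averaging at least 1 CPM, as a description over 6 libraries that share depth and tissue makeup. The most alike were Itm2a, Tma7 and Ptger3 (Pearson r of 0.99 each) and Thpo and Sparcl1 (0.98 each). With 6 libraries and 14696 genes, values this high can arise by chance. The other receptor genes were less alike, with r of 0.51 for Trac, 0.44 for Cd3d and 0.41 for Cd3g. Lck at 0.67, Ptprc at 0.65 and Cd2 at 0.55 ran with Cd3e. Trdc at -0.66, Tcrg-C1 at -0.24 and Ctla4 at -0.80 had negative r with Cd3e over the same libraries.

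Mast cell markers summed to 10.8, 14.3 and 17.5 CPM in Plg KO and 22.2, 32.6 and 25.1 CPM in Plg WT, without overlap. Macrophage and monocyte markers summed to 57.9, 69.3 and 56.9 CPM in Plg KO and 48.3, 49.7 and 37.9 CPM in Plg WT. The innate lymphoid markers summed to 119, 74.3 and 78.7 CPM in Plg KO and 71.4, 105 and 58.6 CPM in Plg WT, the fibroblast markers to 1680, 962 and 1900 CPM in Plg KO and 1660, 2780 and 1530 CPM in Plg WT, and the dendritic and Langerhans cell markers to 25.3, 21.5 and 16.0 CPM in Plg KO and 15.9, 19.9 and 20.1 CPM in Plg WT.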
